A study of Mus musculus with 4 samples.

Results

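Rtp4, Apol9b, Ifi27, Ifi35, Xaf1, Sp100 and Lgals3bp are 7 genes known to be induced by interferon whose products are less studied than the classical antiviral effectors. They were followed here among the 22180 mouse genes measured with a single gene symbol, in BR5FVB1-Akt cells, a cultured mouse ovarian cancer line. The samples were 2 titled control and 2 titled decitabine treatment. The treatment text, the same for all 4, gives 10 uM decitabine for 72 h and was taken to apply to the decitabine samples, since what the control samples received is not given in the sources used here. Each sample was hybridised to its own Affymetrix Mouse Gene 2.0 ST array. All 4 samples were of the same line, and its alleles, transgenes and clonal origin are not given in the sources used here. The samples of a group are called biological replicates without a word on how the cultures were separated. The spread between these 4 arrays may therefore be technical. Each error of a fold change below is a limma standard error, which draws a gene's own spread toward a value shared by all genes. For genes whose replicates differ more than most, it is smaller than their own spread alone would give. The genes were chosen by name with the differences between decitabine and control in view, so their differences are a description and no test of them is given. Where several array rows carried a gene, the brightest row on average stood for it.

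Type I interferon binds the receptor subunits Ifnar1 and Ifnar2 and activates the kinases Jak1 and Tyk2, and the transcription factors Stat2 and Irf9 then carry the signal to the interferon-stimulated response element, a DNA motif in the promoters of induced genes. Decitabine is a cytidine analogue that is built into replicating DNA and traps DNA methyltransferases, so that methylation is lost as cells divide. Cytosine methylation helps to keep endogenous retroviral sequences silent, and in several tumour lines drugs of this class are known to be followed by an interferon response. The 7 products lie in different places in the cell. Rtp4 is a receptor transporter protein that helps some G-protein-coupled receptors reach the cell surface, and Apol9b is an intracellular member of the apolipoprotein L family. Ifi27 is a small hydrophobic protein and Xaf1 a zinc finger protein that binds the apoptosis inhibitor Xiap, and both are linked to cell death. Ifi35 is a leucine zipper protein that pairs with Nmi, Sp100 is a component of PML nuclear bodies, and Lgals3bp is a secreted glycoprotein that binds galectins.

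The markers of the line were checked on the same arrays. Wt1 and Upk3b, genes of the ovarian surface and mesothelium, lay at 10.78 and 11.99 on control replicate 1 on the log2 scale, and the keratin gene Krt18 at 9.25, whereas Pax8 and Epcam lay at 3.50 and 4.68. The fibroblast genes Dcn, Pdgfra and Col1a1 were similarly bright, at 11.78, 10.93 and 10.24 on the same array. Lum, also a fibroblast gene, and the endothelial gene Emcn lay at 2.34 and 3.08. Of 19 leukocyte markers measured, 0 passed in limma at an adjusted p under 0.05, while at the nominal 0.05 level, before adjustment, 2 were higher and 0 lower, and a trend of variance with intensity gave 1 and 0. The 2 were Cd68 (0.45 ± 0.10, limma, adjusted p = 0.186), also the 1 called with a trend, and Itgam (0.50 ± 0.11, limma, adjusted p = 0.191). The leukocyte markers lay between 1.58 and 7.08, with Cd68 at the top, and the defining leukocyte gene Ptprc between 3.01 and 3.24. Summed on the linear scale, the leukocyte markers came to 386 to 414 units on the control arrays and 430 to 461 on the decitabine arrays. Of 14 fibroblast and endothelial markers 0 passed, with 3 higher and 1 lower at the nominal level and 1 and 1 with a trend. The surface marker gene Thy1 was at 1.48 ± 0.17 (limma, adjusted p = 0.0762). Pdgfra, the 1 called lower with a trend, was at −0.28 ± 0.10 (limma, adjusted p = 0.315). Of 12 ovarian epithelial markers 0 passed, with 4 higher and 1 lower at the nominal level and 4 and 2 with a trend. Msln, the mesothelin gene, was at 0.86 ± 0.10 (limma, adjusted p = 0.0762). Wt1 and Upk3b, the 2 called lower with a trend, were at −0.28 ± 0.10 and −0.19 ± 0.10, with adjusted p of 0.321 and 0.445 in limma. On the control arrays the fibroblast and endothelial markers summed to 8700 to 8777 units and the ovarian epithelial markers to 7221 to 7303. On the decitabine arrays these sums were 8450 to 8538 and 6791 to 6878. Over all genes 7.34% were higher and 6.97% lower at the nominal level, and 3.68% and 3.6% with a trend. The part of other cell types in the differences below was not tested. In an extract of many cells, more RNA per cell and more cells with the RNA cannot be told apart.

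All 7 genes lay higher on both decitabine arrays than on both control arrays, by 1.49-fold for Ifi35 to 4.36-fold for Rtp4. The same held for 23.4% of all genes tested, and the reverse for 22.5%. The median log2 fold change was 1.21 over the 7 genes and 0.00 over all genes, and the 5th and 95th percentiles of all genes were −0.39 and 0.39. In limma with Benjamini-Hochberg adjustment over all genes, 2 of the 7, Rtp4 and Apol9b, were past an adjusted p of 0.05 as higher, as were 0.131% of all genes, and 0 as lower, as were 0.0135%. When the variance model followed intensity, 7 of the 7 were called higher, against 3.68% of all genes, and 0 lower, against 3.6%. With quantile normalization or robust eBayes 0 were called. Since the same contrast chose the genes, these counts support nothing further.

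**Figure D1:**
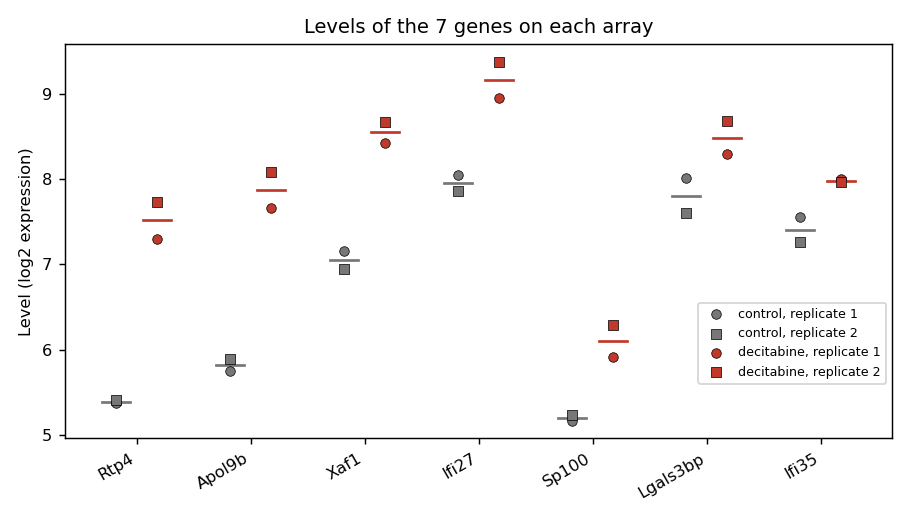
Level of each of the 7 genes on each array, in log2 expression, with grey points for control, red points for decitabine, circles for replicate 1, squares for replicate 2 and a short line at each group mean (n = 2). Both red points lie above both grey points for every gene, with the widest gap for Rtp4 (1.89) and the narrowest for Lgals3bp (0.28), and the gene order is that of the difference.

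Rtp4, array row 17324446 on chromosome 16, had the largest difference of the 7. Its levels on the log2 scale were 5.37 and 5.41 on control replicates 1 and 2, and 7.30 and 7.73 on decitabine replicates 1 and 2. The control arrays lay within 0.04 of each other, while the decitabine arrays lay 0.43 apart and at least 1.89 above either control array. The log2 fold change was 2.12 ± 0.17 (limma SE, n = 2 per group), a 4.36-fold difference, which ranked 4 among all genes tested.

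Apol9b, array row 17312686 on chromosome 15, had levels of 5.75 and 5.89 on control replicates 1 and 2 and of 7.66 and 8.08 on decitabine replicates 1 and 2. The gap between the groups, 1.77, was again wider than the spread within either. Its log2 fold change was 2.05 ± 0.17 (limma SE, n = 2 per group), or 4.15-fold, which differed from that of Rtp4 by 0.07. The centred profiles of Rtp4 and Apol9b over the 4 arrays, each taken relative to its own control mean, were the closest pair among the 7 genes, with a Euclidean distance of 0.12 log2 units. The near copy Apol9a was also brighter with decitabine, and since the copies are alike, how far each row measured its own gene is uncertain.

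The promoter of Apol9b is shown because it holds the core of the interferon-stimulated response element. RefSeq promoter windows of 300 bases (250 before to 50 after the start, build GRCm38.p6) were matched by symbol for 5 of the 7 genes, Apol9b, Ifi35, Xaf1, Sp100 and Lgals3bp, and not for Rtp4 and Ifi27. That core was searched as GAAA and GAAA parted by any 2 bases, on both strands, which was found in 3.44% of all 32851 windows of that length and 2 or more times in 0.225%. Among the matched genes it was found in Apol9b alone, as 2 overlapping matches, in capitals below, from base −37 to −28 and from −31 to −22 before the start of the first of its 2 windows. The lines give the 150 bases before the start, 5′ to 3′ on the strand of the gene. They lie at chr15:77728922-77729071 for Apol9b, chr11:72301479-72301628 for Xaf1, chr1:85649838-85649987 for Sp100, the first of its 2 windows, and chr11:101448262-101448411 for Ifi35, all on the plus strand, and at chr11:118401960-118402109 on the minus strand for Lgals3bp. In all but Apol9b the capitals mark each GAAA or TTTC, the repeated unit of the motif, a search added after the windows were seen.
Apol9b: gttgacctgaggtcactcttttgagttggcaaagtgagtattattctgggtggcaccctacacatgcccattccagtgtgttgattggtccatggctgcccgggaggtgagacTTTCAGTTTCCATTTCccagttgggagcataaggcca
Xaf1: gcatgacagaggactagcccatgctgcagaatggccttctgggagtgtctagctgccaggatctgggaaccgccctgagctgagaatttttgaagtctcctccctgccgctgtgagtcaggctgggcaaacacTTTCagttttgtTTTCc
Sp100: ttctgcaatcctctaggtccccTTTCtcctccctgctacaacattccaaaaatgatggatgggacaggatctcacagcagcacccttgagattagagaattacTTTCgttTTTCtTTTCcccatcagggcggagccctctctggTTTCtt
Lgals3bp: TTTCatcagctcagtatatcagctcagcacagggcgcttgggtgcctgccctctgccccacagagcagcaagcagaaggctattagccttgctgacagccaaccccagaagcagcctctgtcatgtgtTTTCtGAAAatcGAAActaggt
Ifi35: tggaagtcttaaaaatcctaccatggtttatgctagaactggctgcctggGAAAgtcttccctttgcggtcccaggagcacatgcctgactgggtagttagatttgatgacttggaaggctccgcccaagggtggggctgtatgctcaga

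In the Apol9b stretch, 3 copies of TTTC follow one another at gaps of 2 bases, which is the spacing of that core. The Sp100 stretch holds a run of TTTC at gaps of 3 bases and 1 base, the Lgals3bp stretch holds 2 copies of GAAA with 3 bases between them, and the Xaf1 stretch 2 copies of TTTC with 8 bases between them. The whole windows of Xaf1, Sp100 and Lgals3bp held 6 copies of GAAA or TTTC each, that of Apol9b 4 and that of Ifi35 3, beside a median of 3 over all windows. Of CpG, the dinucleotide at which DNA is methylated, the windows held 2 in Sp100, 3 in Apol9b, Ifi35 and Lgals3bp and 6 in Xaf1, beside a median of 7 over all windows, and Xaf1 stood at the 47.9 percentile of all windows. The first windows of Apol9b and Apol9a were identical over all 278 bases that could be compared without gaps, the annotated starts lying 22 bases apart. These matches describe letters in the windows and show no binding.

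Xaf1 and Ifi27, the genes linked to cell death, came next in size. Xaf1, array row 17252341 on chromosome 11, had levels of 7.15 and 6.95 on control replicates 1 and 2 and of 8.42 and 8.67 on decitabine replicates 1 and 2. The lower decitabine array lay 1.27 above the higher control array, and the log2 fold change was 1.50 ± 0.14 (limma SE, n = 2 per group), a 2.82-fold difference. Ifi27, array row 17278200 on chromosome 12, had levels of 8.04 and 7.86 on the control arrays and of 8.94 and 9.37 on the decitabine arrays. Its decitabine arrays were 0.43 apart, less than the 0.90 that parted the groups, and the log2 fold change was 1.21 ± 0.17 (limma SE, n = 2 per group), or 2.31-fold. The differences of Xaf1 and Ifi27 were themselves 0.29 apart.

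Sp100 and Ifi35, whose products act in nuclear bodies and in a complex with Nmi, showed smaller differences. Sp100, array row 17366278 on chromosome 1, had levels of 5.17 and 5.24 on control replicates 1 and 2 and of 5.91 and 6.29 on decitabine replicates 1 and 2. The groups were 0.68 apart at their nearest, and the log2 fold change was 0.90 ± 0.15 (limma SE, n = 2 per group), or 1.86-fold. Ifi35, array row 17256734 on chromosome 11, had levels of 7.55 and 7.26 on the control arrays and of 7.996 and 7.964 on the decitabine arrays. Here the control arrays were the more spread pair, 0.29 apart, against 0.03 for the decitabine arrays, and the groups were 0.41 apart. Its log2 fold change of 0.58 ± 0.13 (limma SE, n = 2 per group), a 1.49-fold difference, was the smallest of the 7.

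Lgals3bp, the secreted member, array row 17272785 on chromosome 11, had the largest limma standard error of the 7 and the most spread control arrays. Its decitabine arrays were less spread than those of Rtp4, Apol9b and Ifi27. Its levels were 8.01 and 7.60 on control replicates 1 and 2 and 8.29 and 8.67 on decitabine replicates 1 and 2. The groups did not overlap, but the 0.28 between them was less than the 0.41 between the control arrays and the 0.38 between the decitabine arrays. The log2 fold change was 0.68 ± 0.20 (limma SE, n = 2 per group), or 1.60-fold. Ordered by difference the genes ran Rtp4, Apol9b, Xaf1, Ifi27, Sp100, Lgals3bp and Ifi35. Of the 6 neighbouring pairs only Apol9b and Xaf1, 0.56 ± 0.22 apart, were separated by more than 1.33 standard errors of their difference. Each such error combined the limma errors of both genes as if the genes were independent. They were measured on the same arrays, so these ratios cannot decide which neighbouring genes differ. Of the 7 genes, 3 (Xaf1, Ifi35 and Lgals3bp) are on chromosome 11, which carries 7.50% of the tested genes with a known chromosome.

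The array held 12 rows named for these genes by a single symbol, and 3 genes had more than 1 row. Sp100 had 4, and its second brightest row, 17214948, gave levels of 4.92 and 5.17 on control replicates 1 and 2 and of 5.86 and 5.96 on decitabine replicates 1 and 2, a log2 difference of 0.87 beside 0.90 in the row used. The other rows of Sp100, 17366197 and 17214979, had group means between 1.88 and 2.43, near the bottom of the arrays, with differences of 0.16 and −0.05 and overlapping groups. A further row carries the names of both Sp100 and Gm7609 and was not analysed here, so the copy of the gene that each row measured is uncertain. The second row of Lgals3bp, 17547604, went from 6.59 and 6.37 to 6.87 and 6.99, a difference of 0.45 beside 0.68. The second row of Ifi35, 17269908, went from 5.20 and 5.22 to 5.29 and 5.61, a difference of 0.24 beside 0.58. In both second rows the groups did not overlap, and the differences were smaller than in the rows used. All rows come from the same 4 extracts, so they repeat the measurement and not the experiment.

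**Figure D2:**
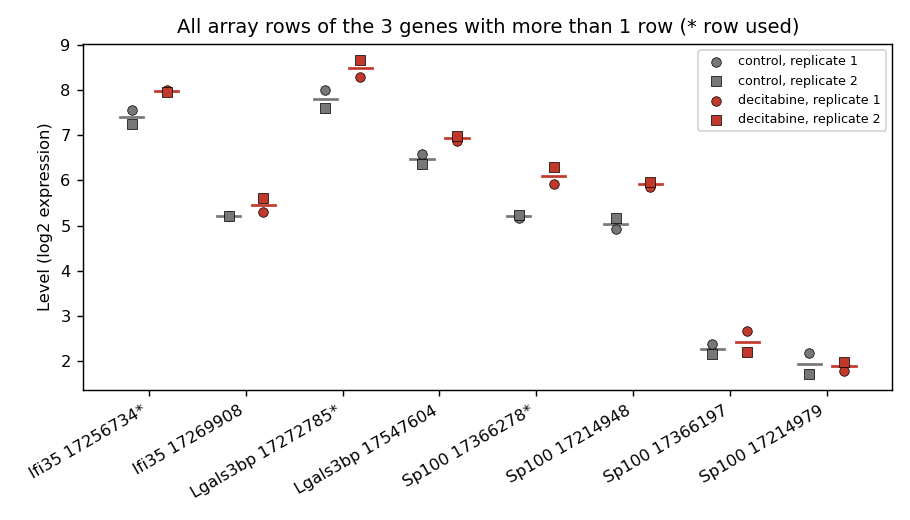
Level of every array row of Sp100, Lgals3bp and Ifi35 on each array, in log2 expression, with symbols as in the plot of levels and an asterisk at the row used for the gene. The decitabine points lie above the control points in 6 of the 8 rows, and in the 2 dim Sp100 rows, whose group means lie between 1.88 and 2.43, they overlap.

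The decitabine arrays differed from each other in a shared direction for these genes. In 6 of the 7 genes decitabine replicate 2 lay above decitabine replicate 1, by 0.25 for Xaf1 to 0.43 for Rtp4, and for Ifi35 it lay 0.03 below. The median of this difference was 0.38 over the 7 genes and −0.01 over all genes, of which 48.3% were higher on decitabine replicate 2. On the control arrays the order was less uniform, with 4 of the 7 genes lower and 3 higher on control replicate 2. The median of control replicate 2 minus control replicate 1 was −0.18 over the 7 genes and −0.01 over all genes. The median log2 fold change of the 7 genes was 0.99 without decitabine replicate 2 and 1.42 without decitabine replicate 1. A cause of the difference between the decitabine arrays was not tested.

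The genes with the profile most like Rtp4 were sought over the 4 arrays, after subtraction of each gene's control mean, by Euclidean distance among genes outside the 7. The nearest were Usp18, which removes Isg15 from proteins, at 0.11 log2 units, and the oligoadenylate synthetase-like gene Oasl2 at 0.22, beside 0.12 for Apol9b, one of the 7. Both shared the higher value on decitabine replicate 2, with Usp18 at 1.93 and 2.44 above its control mean on decitabine replicates 1 and 2, and Oasl2 at 1.78 and 2.23. Next came the chemokine gene Ccl5 (0.25), the polo-like kinase gene Plk2 (0.27) and Ifit1, an RNA-binding antiviral gene (0.37), followed by the chemokine gene Cxcl3 (0.43), the hexosamine enzyme gene Gfpt2 (0.50) and the prostaglandin synthase gene Ptgs2 (0.51). Ifit1, at 1.97 and 1.99, was nearly level between the decitabine arrays. Nearest to the mean profile of the 7 genes were the protease gene Prss23 (0.17), the RNA sensor gene Ddx58 (0.19), the phosphatase gene Dusp4 (0.19) and the guanylate-binding protein gene Gbp3 (0.19), and then Tspan18 (0.20), Isg15 (0.21), Cxcl1 (0.22) and Adamts5 (0.23). With 4 arrays the likeness mostly measures an equal size of difference, and these genes were picked by it.

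**Figure D3:**
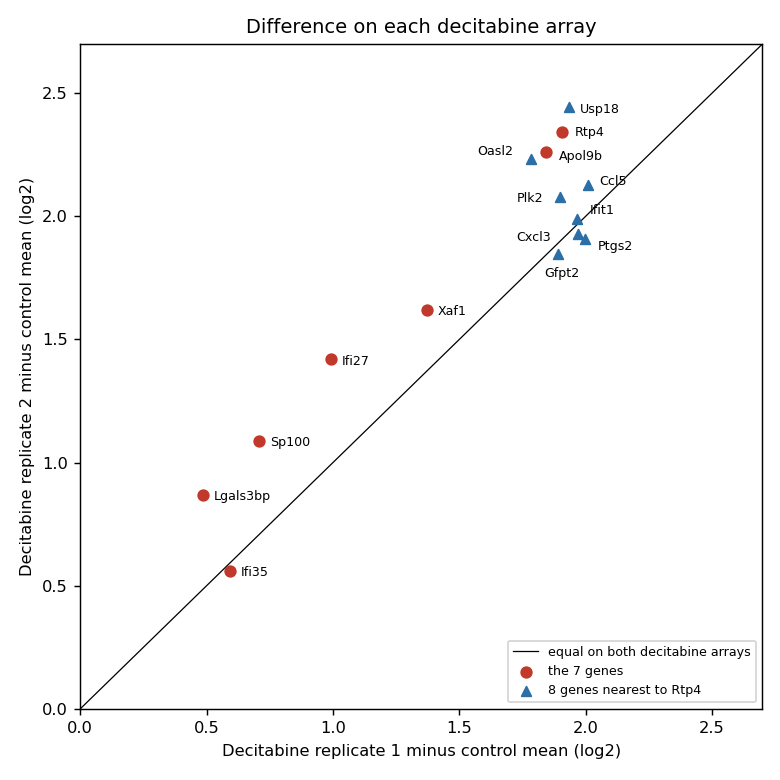
Level on decitabine replicate 1 (horizontal) and on decitabine replicate 2 (vertical), each minus the mean of the control arrays in log2 units, for the 7 genes (red circles) and the 8 genes nearest to Rtp4 (blue triangles), with a line of equality. Of the 7 genes 6 lie above the line, as do Usp18, Oasl2, Plk2 and Ccl5, while Ifi35 and Ifit1 lie close to it. Cxcl3, Gfpt2 and Ptgs2 lie a little below the line.

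Genes related to the 7 by family were taken as a list. Of 18 measured relatives, 0 passed in limma with adjustment over all genes, while at the nominal 0.05 level 5 were higher and 0 lower, and 2 (Apol9a and Sp110) were called higher in the fit with a trend. Beside this list and those that follow, 7.34% of all genes were higher and 6.97% lower at the nominal level, and 3.68% and 3.6% with a trend. The median log2 fold change of the list was 0.09. Apol9a had levels of 7.58 and 7.42 on control replicates 1 and 2 and of 8.50 and 9.40 on decitabine replicates 1 and 2, a log2 fold change of 1.45 ± 0.30 (limma, adjusted p = 0.17). Its groups did not overlap, and its decitabine arrays lay 0.90 apart, with replicate 2 again the higher. Sp110, a nuclear body protein related to Sp100, was at 0.72 ± 0.12 (limma, adjusted p = 0.131). The other 11 apolipoprotein L genes measured ranged from −0.24 for Apol10a to 0.70 for Apol7a, whose decitabine levels of 5.36 and 4.66 lay above its control levels of 4.23 and 4.38. The receptor transporter genes Rtp1, Rtp2 and Rtp3 were at 0.02 ± 0.27, −0.08 ± 0.19 and 0.49 ± 0.17, and Ifi27l2b, a relative of Ifi27, at 0.10 ± 0.30. None of these 4 passed in limma, with adjusted p between 0.307 and 0.982.

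Genes of proteins that bind the 7 products came next. Of 10 measured partner genes, 0 passed in limma over all genes, while at the nominal 0.05 level 3 were higher and 0 lower, and 3 were called higher in the fit with a trend. The list's median was 0.22. The 3 called with a trend were Lgals3, the galectin that Lgals3bp is named for (0.80 ± 0.13, limma, adjusted p = 0.127), the galectin gene Lgals1 (0.34 ± 0.09, limma, adjusted p = 0.24) and Daxx, a chaperone of nuclear bodies (0.41 ± 0.10, limma, adjusted p = 0.204). Lgals3 lay at 5.60 and 5.87 on the control arrays and at 6.48 and 6.60 on the decitabine arrays, with no overlap. Nmi, the partner of Ifi35, was at 0.29 ± 0.11, Pml, the organiser of nuclear bodies, at 0.24 ± 0.10, and Xiap, the target of Xaf1, at −0.22 ± 0.10, with adjusted p of 0.351, 0.366 and 0.39 in limma.

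The interferon genes themselves were not called. Of 17 measured ligand genes 0 passed in limma over all genes, without or with a trend, and at the nominal 0.05 level 0 were higher and 1, Ifnab, lower. The list's median was −0.07, and 14 of the 17 were higher on decitabine replicate 2 than on replicate 1, by a median of 0.06. Ifnb1, the interferon beta gene, had levels of 3.66 and 2.73 on control replicates 1 and 2 and of 3.41 and 3.18 on decitabine replicates 1 and 2. Its groups overlapped, and its log2 fold change was 0.10 ± 0.32 (limma, adjusted p = 0.926). Ifna9 was at 0.68 ± 0.35, Ifna11 at −0.30 ± 0.14 and Ifnab at −0.65 ± 0.10, with adjusted p of 0.46, 0.43 and 0.126 in limma. The ligand genes lay between 1.65 and 7.42 on the log2 scale. No background level was set for these arrays, so whether each ligand was detected is not known.

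Among the receptors and signal carriers, Usp18, a brake on the receptor, was the 1 of 17 measured genes to rise in limma over all genes (2.19 ± 0.19, adjusted p = 0.0495), and its call was lost with quantile normalization and with robust eBayes. At the nominal 0.05 level 5 were higher and 0 lower, and 5 and 0 were called in the fit with a trend. The transcription factor genes Irf7 (1.74 ± 0.16, limma, adjusted p = 0.0564), Irf9 (0.93 ± 0.11, limma, adjusted p = 0.0762) and Stat2 (0.46 ± 0.15, limma, adjusted p = 0.274) lay higher on each decitabine array than on either control array. Irf7 lay at 6.31 and 6.10 on the control arrays and at 7.77 and 8.12 on the decitabine arrays. The receptor genes Ifnar1 and Ifnar2 were at −0.23 ± 0.10 and −0.10 ± 0.10 and the kinase genes Jak1 and Tyk2 at 0.22 ± 0.10 and −0.30 ± 0.15, with adjusted p between 0.379 and 0.726 in limma. The kinase gene Jak2 was at 0.48 ± 0.12 (limma, adjusted p = 0.206), lay higher on each decitabine array than on either control array, and was among the 5 called with a trend. Irf1, which is induced by interferon gamma, was at 0.15 ± 0.12 (limma, adjusted p = 0.643). The inhibitor genes Socs1 and Socs3 were at 0.25 ± 0.12 and −0.16 ± 0.10, with adjusted p of 0.445 and 0.559 in limma.

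A list of other interferon-induced genes was read beside the 7. Of 31 measured, 0 passed in limma over all genes, while at the nominal 0.05 level 18 were higher and 0 lower, and the fit with a trend called 15 higher and 1, Mov10, lower. Over all genes 7.34% were higher and 6.97% lower at the nominal level. The list's median log2 fold change was 0.37, below the 1.21 of the 7 genes, which had been chosen for their differences. The smallest p-values were those of the restriction factor Bst2 (1.09 ± 0.10, limma, adjusted p = 0.0558), the nucleotide kinase Cmpk2 (1.35 ± 0.13, limma, adjusted p = 0.0579), Tdrd7 (0.79 ± 0.10, limma, adjusted p = 0.0883) and the antiviral enzyme Rsad2 (0.93 ± 0.13, limma, adjusted p = 0.102). Of the list 20 of 31 were higher on decitabine replicate 2 than on replicate 1, by a median of 0.05, beside 6 of 7 and a median of 0.38 for the 7 genes, and this difference was not tested.

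**Figure D4:**
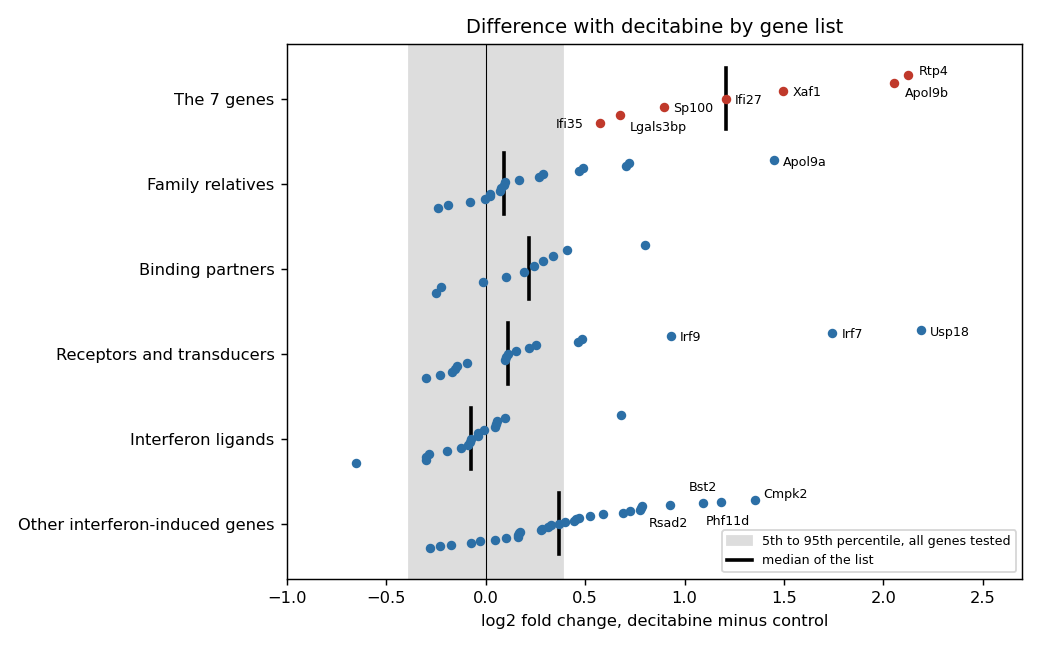
log2 fold change of decitabine minus control (horizontal) for each measured gene of 6 lists (vertical), with a black line at each list's median and a grey band from the 5th to the 95th percentile of all genes tested (−0.39 to 0.39). All 7 genes lie to the right of the band, as do some genes of every other list, among them Apol9a, Lgals3, Irf9, Irf7, Usp18, Bst2 and Ifna9. The ligand list is centred on −0.07, with Ifnab to the left of the band.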

How the data were processed

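Per the labels' protocols, biotin-labelled whole-transcript targets made from total RNA of 4 samples were hybridised to Affymetrix Mouse Gene 2.0 ST arrays. The values deposited by the authors, 1 per row and array, run from 0.55 to 13.26 with array medians of 4.60 to 4.66 and were read as log2 expression. The log base, summarisation, background correction, scaling and genome build are not given in the sources used here, and every fold change depends on that reading. No detection level was set, and the number of arrays limits the precision.

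Of 41345 rows, 23521 had 1 gene symbol in the platform table, which gave 22180 genes. Groups come from the titles, because the treatment text is the same for all samples. The test was limma (version 3.58.1, R 4.3.3) with lmFit and eBayes, two-sided, on group alone, with no intensity trend, a prior SD of 0.12 and Benjamini-Hochberg adjustment over all genes. An exact permutation test of 2 against 2 arrays cannot give a p below 0.333 and was not used. On simulated data for this comparison, with 10 sets of 22180 genes and 200 of them changed, the test found 47.1% of the 2-fold and 94.8% of the 4-fold changes, and 5.21% of calls were false. The simulated errors were independent between genes and followed the variance model of the test itself, whatever the level of a gene. These rates therefore need not hold for the real arrays.

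The members and the 8 gene lists were chosen with earlier results of these data known. Genes named are the members, any gene of the relative, partner, receptor and transducer lists, the 4 with the smallest p in other lists, Ifnb1, and the 8 nearest to Rtp4 and to the members' mean, leaving out clone-style symbols. The genes Mov10, Upk3b, Pax8, Epcam, Ptprc, Dcn, Col1a1, Lum and Emcn were named outside that rule. Of the list entries, 11 had no row of a single symbol and were not analysed here. A second motif search is not reported here. Alternatives were other normalizations, filters, variance models, rows and thresholds, the replicate block and leaving out each array. The table held 0 columns of other series. Figures were drawn with matplotlib 3.10.9.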

Additional observations from a re-analysis of the deposited data

How the results depend on the processing

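Under the alternatives run, the differences of the 7 genes stayed positive except that of Sp100 with the lowest-mean row per gene, which was −0.050. That choice gave 0.24 for Ifi35, and the mean of a gene's rows gave 0.47 for Sp100 and 0.41 for Ifi35. Leaving out each array in turn gave 1.91 to 2.34 for Rtp4, 1.84 to 2.26 for Apol9b, 1.37 to 1.62 for Xaf1, 0.99 to 1.42 for Ifi27 and for the median of the 7 genes, 0.71 to 1.09 for Sp100, 0.47 to 0.88 for Lgals3bp and 0.43 to 0.72 for Ifi35.

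Calls depended far more on the setting. Over all genes, 29 were higher and 3 lower as reported, 151 and 64 when only genes brighter than the 25th percentile were kept, 635 and 616 above the median level, 817 and 798 with an intensity trend, and 114 and 40 at an adjusted p under 0.1. Robust eBayes called 15 higher, centred arrays 8 lower and the mean of a gene's rows 5 lower. At an unadjusted p under 0.05, a count added after seeing the data, 1629 were higher. Of the 7 genes, 2 were called as reported, 4 and 6 with the filters, 7 with the trend, and 0 with quantile normalization or robust eBayes. The relative, partner, ligand, receptor and other interferon-induced lists held 18, 10, 17, 17 and 31 measured genes, and Nmi, in the first 2, was counted once. Of these genes, counting calls in either direction together, 1 was called as reported, 4 with centred arrays, 7 and 20 with the filters, 26 with the trend, and 0 with quantile normalization or robust eBayes. The shares over all genes were 0.131% higher and 0.0135% lower as reported, and 3.68% and 3.6% with the trend. Without any 1 of the 4 arrays all these counts ranged from 0 to 0, with the lone array assumed to vary like the other group. With the replicate number as a block they were 0 higher and 0 lower over all genes, 0 of the 7 and 0 in the lists, although the differences themselves were the same. The numbers are shared in the titles only, and same-numbered arrays did not deviate together (correlation of deviations −0.02 over genes). The cause of the other changes in count was not tested.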
